A study of Homo sapiens with 4 samples.

Results

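The small cornified envelope precursors are 10 genes out of the 18417 that the arrays measured by a single gene symbol. They were taken from a written list of SPRR, LCE and related envelope genes, which was chosen with earlier results of these data known. All 10 were found: SPRR1A, SPRR1B, SPRR2D, SPRR2E, SPRR3, IVL, CNFN, CRCT1, LCE3D and LCE3E. Each had 1 probe set. A further 20 measured SPRR and LCE genes were kept in a separate list. The series used siRNA to knock down KLF7, a zinc finger transcription factor, in HCE cells, which the labels describe as an undifferentiated cell line within a study of the corneal epithelium. All cells were grown in Occulife medium, plated at 100000 cells per well, transfected with a pool of siRNAs at 20 nM and collected 48 hours later. The 2 scramble control arrays came from cells given a non-targeting control pool, and the 2 siKLF7 arrays from cells given a pool against KLF7. Nothing in the labels says that the samples of a group were separate cultures. The p-values therefore reflect the spread among these samples alone, and that spread may be technical.

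The cornified envelope is a protein shell that replaces the plasma membrane as stratified squamous cells end their differentiation. Transglutaminases cross-link its precursors: involucrin, the product of IVL, is laid down early as a scaffold, small proline-rich proteins of the SPRR family bridge other components, and late cornified envelope proteins of the LCE family are added late. Most of these genes lie together in the epidermal differentiation complex on chromosome 1. The corneal epithelium is stratified but does not normally cornify, and SPRR genes there are known to respond to stress and squamous metaplasia. In the RefSeq annotation of GRCh38.p14, 9 of the 10 genes lie on chromosome 1, while CNFN, which encodes the envelope protein cornifelin, lies on chromosome 19.

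The 2 scramble control arrays differed widely from each other. For the 10 precursors the direction of each comparison below depends on which of them is used. The correlation across all genes between scramble control replicate 1 and each remaining array was 0.934 to 0.938, while the remaining 3 arrays correlated at 0.990 to 0.994 among themselves. The targeted gene checked the labels: the KLF7 signal was 4649 and 2911 in scramble control replicates 1 and 2, and 1492 and 1122 in siKLF7 replicates 1 and 2. Both siKLF7 arrays were below both controls. The log2 difference of KLF7 was -1.50 (SE 0.28) and did not pass with 4 arrays (limma adjusted p = 0.639; exact two-sided permutation p = 0.333, which is the minimum for 2 arrays per group). Without scramble control replicate 1 it was -1.16 (SE 0.13, adjusted p = 1.2e-09). Of 7 corneal epithelial markers, 4 were at least 2-fold lower in scramble control replicate 1 than the mean of the other 3 arrays. KRT3, a cornea-type keratin, stood at a signal of 0.00549 in that array and 1440.4, 1873 and 2461 in the others. The summed signal of the 7 markers was 21891 in scramble control replicate 1, 31528 in scramble control replicate 2, and 35244 and 38109 under siKLF7. Each of the 7 was brighter under siKLF7 than in either control, and against scramble control replicate 2 the list median was 0.57 and 4 rose: KRT12 by 0.81, KRT3 by 0.57, ALDH3A1 by 0.65 and KRT15 by 0.85 (limma, 3 arrays). Among 7 fibroblast or keratocyte markers, POSTN stood at 678 in scramble control replicate 1 against 25.4, 77.4 and 44.1 in the others. It was the only 1 of the 7 for which the controls differed at least 2-fold. Over the list, scramble control replicate 1 stood at a median log2 difference of 0.18 from the mean of the other 3. The range was -0.73 to 3.50. Against scramble control replicate 2 the siKLF7 mean had a median log2 difference of 0.02 over these 7, with a range of -0.20 to 0.86. Both siKLF7 arrays were above that control for 3 of the 7 and below it for 3, so higher values there were not limited to corneal markers. The summed signal of that list, POSTN included, was 3294 and 2074 in control and 2644 and 2504 in siKLF7 arrays. Of 3 simple epithelium markers 1, EPCAM, was at least 2-fold lower in scramble control replicate 1 than the mean of the other 3 arrays, as were 0 of 3 endothelium, 0 of 3 leukocyte and 0 of 3 melanocyte markers. The part of these markers in the results for the envelope precursors was not tested.

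All 10 envelope precursors had the same order of arrays: scramble control replicate 1 was lowest, scramble control replicate 2 was highest, and both siKLF7 arrays lay between them. Over all genes, 9.89% showed that order. SPRR2D, SPRR2E, SPRR3, CNFN, CRCT1 and LCE3D fell in siKLF7 cells against scramble control replicate 2, to between 38.0% of its level for CRCT1 and 63.0% for SPRR3, where 0.69% of all genes fell and 0.885% rose. SPRR1A, SPRR1B, IVL and LCE3E did not pass in that comparison, and SPRR1A stood at 96.2% of the control. In the comparison with scramble control replicate 1 the direction was the opposite: 9 of the 10 rose in siKLF7 cells, where 13.4% of all genes rose and 13.4% fell. On the log2 scale the siKLF7 mean stood at 3.60% of the way from scramble control replicate 1 to scramble control replicate 2 for LCE3E, 51.3% for LCE3D, 58.3% for CRCT1, and 80.7% to 98.4% for the other 7 genes. Percentages and folds here are on the log2(signal + 16) scale, which understates differences of dim genes. In bulk RNA, fewer cells that express a gene and less of its RNA per cell cannot be told apart.

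With all 4 arrays, 0 of the 10 precursors passed limma at an adjusted p under 0.05, and 0 had an unadjusted p under 0.05. Of all genes 0% passed by limma. An unadjusted p under 0.05 was reached by 1069 of the 18417, close to the share that this threshold gives without any differences. The median log2 difference of the 10 precursors was 1.47 with 4 arrays, against -0.05 for all genes. The number of precursors whose groups did not overlap was 0 of 10, against 45.2% of all genes. The comparisons with a single control therefore follow, each fitted to 3 arrays. Such a fit has 1 residual degree of freedom, takes its spread from the siKLF7 pair and the other genes, and assumes that the lone control varies alike.

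**Figure D1:**
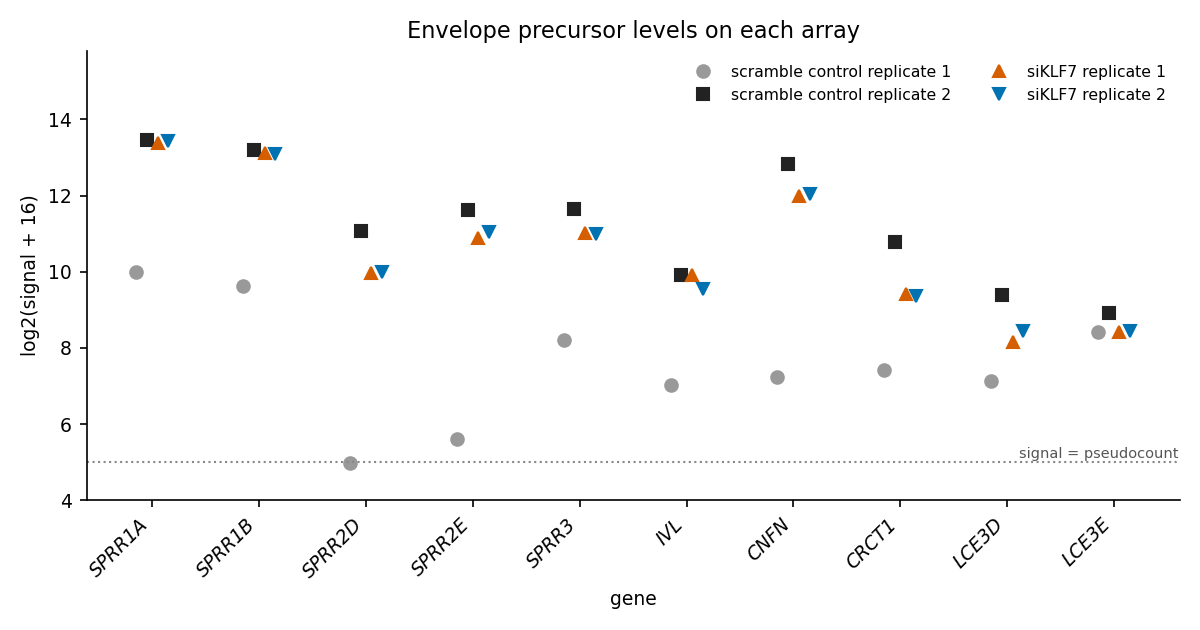
Level of each of the 10 envelope precursors as log2(signal + 16) on the vertical axis, with 1 point per array (2 scramble control, 2 siKLF7) and a dotted line where the signal equals the pseudocount of 16. Scramble control replicate 1 is the lowest point for all 10 genes and scramble control replicate 2 the highest, and SPRR2D in scramble control replicate 1 lies below the dotted line at a signal of 15.6.

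The SPRR1 genes encode cross-bridging proteins of the envelope that many stressed squamous epithelia make. The SPRR1A signal was 1000.1 in scramble control replicate 1, 11316 in scramble control replicate 2, and 10721 and 11056 in the siKLF7 arrays. Scramble control replicate 1 thus stood alone, and the other 3 arrays were close together. The siKLF7 mean was 10888 ± 237 (SD, n = 2), and the log2 difference from scramble control replicate 2 was -0.056 (SE 0.060, 95% interval -0.17 to 0.063, limma adjusted p = 0.75). SPRR1B followed the same pattern, with control signals of 775 and 9279 and siKLF7 signals of 8793 and 8667. From scramble control replicate 2 it differed by -0.088 on the log2 scale (SE 0.066, 95% interval -0.22 to 0.043, adjusted p = 0.64). Neither gene passed in this comparison. Both intervals take their spread from the siKLF7 pair and the other genes, so they do not allow for variation between controls. Scramble control replicate 1 differed from scramble control replicate 2 by -3.48 for SPRR1A and -3.55 for SPRR1B on the log2 scale. Relative to scramble control replicate 1 the log2 differences were 3.42 (SE 0.08) for SPRR1A and 3.47 (SE 0.09) for SPRR1B, or 10.7-fold and 11.1-fold higher.

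The SPRR2 genes are a group of near-identical copies that encode short bridging proteins, so a probe set may also read its neighbours. SPRR2D stood at 15.6 and 2132 in scramble control replicates 1 and 2, and at 985 and 996 in the siKLF7 arrays. Both siKLF7 arrays were near the same level, below scramble control replicate 2 and far above scramble control replicate 1, where the signal was under the pseudocount. Against scramble control replicate 2, SPRR2D fell to 46.9%, a log2 difference of -1.09 (SE 0.14, limma adjusted p = 2.8e-08). SPRR2E stood at 32.9 and 3150.1 in the controls and 1872 and 2079 in the siKLF7 arrays, and it fell by 0.67 (SE 0.12, adjusted p = 6.4e-05), to 62.8%. In the comparison with scramble control replicate 1, SPRR2D was 4.99 higher (SE 0.16) and SPRR2E 5.35 higher (SE 0.16). These 2 differences were the widest of the 10 precursors, and they rest on a control signal near the pseudocount. With a pseudocount of 1 in place of 16, the 4-array difference of SPRR2D was 2.40 in place of 1.95.

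SPRR3 encodes a related protein that is typical of moist stratified epithelia such as the oesophagus. Its signal was 281 and 3213 in the controls and 2036 and 2004 in the siKLF7 arrays, which differed from each other by less than the distance to either control. SPRR3 fell by 0.67 against scramble control replicate 2 (SE 0.12, adjusted p = 5.6e-05) and was 2.78 higher than scramble control replicate 1 (SE 0.15). SPRR3 and its chromosomal neighbours SPRR1A and SPRR1B thus had different outcomes against the same control array, but the difference between them was not tested.

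IVL, the early scaffold gene, stood at 115 and 952 in the controls and 946 and 733 in the siKLF7 arrays, which were farther apart for this gene than for the other precursors, with an SD of 0.26 on the log2 scale, and siKLF7 replicate 1 nearly equalled scramble control replicate 2. The log2 difference from scramble control replicate 2 was -0.19 (SE 0.16, 95% interval -0.50 to 0.12, adjusted p = 0.67), and it did not pass. The difference from scramble control replicate 1 was 2.70 (SE 0.17).

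CNFN had signals of 135 and 7198 in the controls and 4006 and 4161 in the siKLF7 arrays. The siKLF7 mean was 4084 ± 109 (SD, n = 2), well below scramble control replicate 2, and CNFN fell by 0.82 (SE 0.09, adjusted p = 4.8e-11), to 56.8% of that control. Relative to scramble control replicate 1 it was 4.77 higher (SE 0.14). CRCT1, a gene for a cysteine-rich protein that lies beside the LCE3 genes, stood at 157 and 1738 in the controls and 661 and 641 in the siKLF7 arrays. It fell by 1.39 (SE 0.15, adjusted p = 6.8e-11), to 38.0% of scramble control replicate 2, the lowest percentage among the 10 precursors. It stood 1.95 above scramble control replicate 1 (SE 0.16), or 3.87-fold.

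The LCE3 genes encode late envelope proteins that are known in skin for their induction when the barrier is damaged. The LCE3D signal was 125 and 654 in the controls and 267 and 332 in the siKLF7 arrays. LCE3D fell by 1.09 against scramble control replicate 2 (SE 0.17, adjusted p = 3.2e-06) and was 1.15 higher than scramble control replicate 1 (SE 0.16, adjusted p = 8.6e-09). LCE3E had signals of 323 and 469 in the controls and 324 and 331 in the siKLF7 arrays, so scramble control replicate 1 and both siKLF7 arrays were nearly equal. Its log2 difference from scramble control replicate 2 was -0.50 (SE 0.16, 95% interval -0.82 to -0.17, adjusted p = 0.12), which did not pass after adjustment. From scramble control replicate 1 it differed by 0.019 (SE 0.16, adjusted p = 0.95). LCE3E was the precursor for which the controls differed least, by 1.43-fold.

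Counted together, 6 of the 10 precursors fell and 0 rose against scramble control replicate 2, and they had a median log2 difference of -0.67, against -0.04 for all genes. Both siKLF7 arrays were below scramble control replicate 2 for all 10 precursors and for 44.6% of all genes. With scramble control replicate 1 as the control, 9 precursors rose and 0 fell. The median log2 difference was then 3.10, against -0.05 for all genes. Both siKLF7 arrays were above scramble control replicate 1 for all 10 precursors and for 35.2% of all genes. These comparisons share the siKLF7 arrays. Scramble control replicate 1 was at least 2-fold below the mean of the other 3 arrays for 9 of the 10 precursors, the exception being LCE3E, and for 2.99% of all genes. The siKLF7 arrays differed from each other by a median of 0.04 on the log2 scale over the 10 precursors and by at most 0.36, for IVL.

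**Figure D2:**
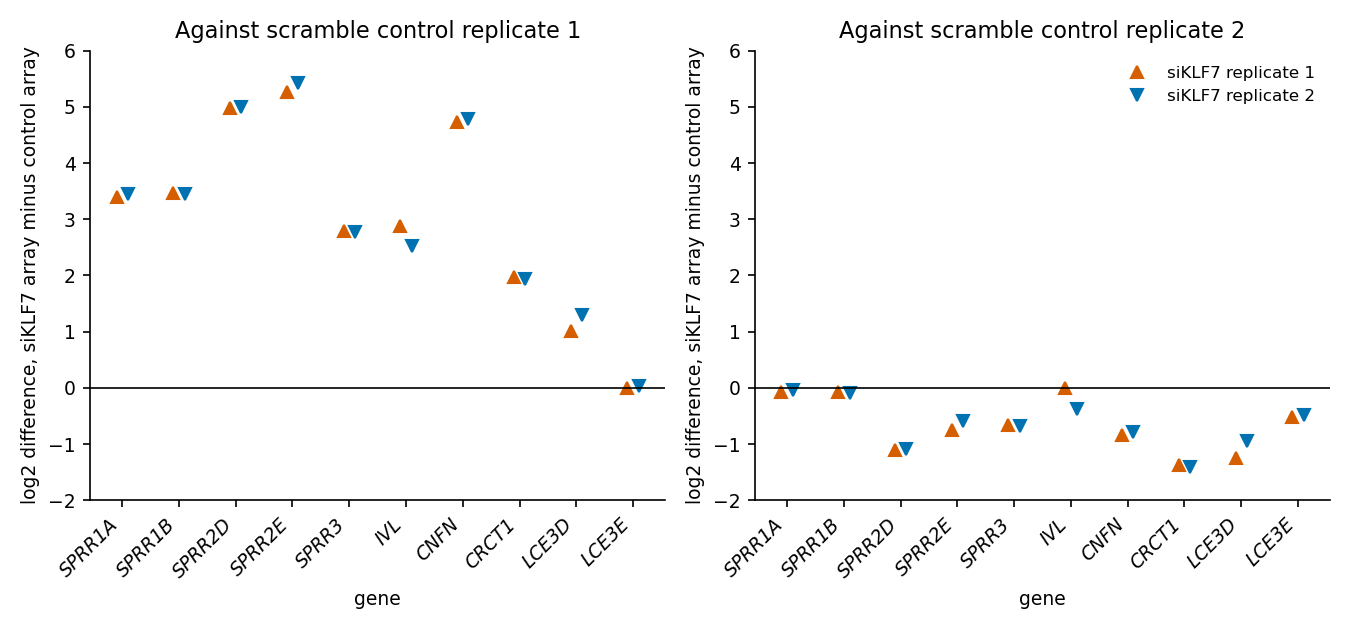
Log2 difference of each siKLF7 array (1 point each) from scramble control replicate 1 in the left panel and from scramble control replicate 2 in the right panel, for the 10 envelope precursors on 1 shared vertical range. All points on the left are above 0, up to siKLF7 means of 4.99 and 5.35 for SPRR2D and SPRR2E, and all on the right are below 0, down to a mean of -1.39 for CRCT1.

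The 250 bases before the annotated start were available for 7 precursors in the RefSeq promoter table of GRCh38.p14, and 5 are shown because they set neighbouring family members with different outcomes side by side, with CNFN as the gene outside chromosome 1. SPRR1A (chr1:152983831-152984080, plus strand) did not pass against scramble control replicate 2 and SPRR3 (chr1:153001499-153001748, plus strand) fell. LCE3D (chr1:152580517-152580766, minus strand) fell and LCE3E (chr1:152566781-152567030, minus strand) did not pass. LCE3E also stood below that control, at -0.50, and the difference between the LCE3 genes was not tested. CNFN (chr19:42390298-42390547, minus strand) fell. Sequences run 5′ to 3′ on the gene's strand and end at the base before the start, and capitals mark every match, on either strand, to CACCC (bound by KLF factors), CCGCCC (the GC box of Sp and KLF factors), TGANTCA (bound by AP-1) or TATAAA.
SPRR1A: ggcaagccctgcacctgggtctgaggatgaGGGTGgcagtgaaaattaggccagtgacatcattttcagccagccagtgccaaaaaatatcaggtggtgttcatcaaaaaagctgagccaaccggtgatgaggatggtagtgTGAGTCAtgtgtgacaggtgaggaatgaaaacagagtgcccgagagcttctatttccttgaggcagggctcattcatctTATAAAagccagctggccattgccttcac
SPRR3: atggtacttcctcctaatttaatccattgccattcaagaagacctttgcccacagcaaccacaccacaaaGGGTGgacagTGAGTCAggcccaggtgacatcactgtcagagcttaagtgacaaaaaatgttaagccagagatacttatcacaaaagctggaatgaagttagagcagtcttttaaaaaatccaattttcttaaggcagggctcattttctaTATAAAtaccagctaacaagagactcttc
LCE3D: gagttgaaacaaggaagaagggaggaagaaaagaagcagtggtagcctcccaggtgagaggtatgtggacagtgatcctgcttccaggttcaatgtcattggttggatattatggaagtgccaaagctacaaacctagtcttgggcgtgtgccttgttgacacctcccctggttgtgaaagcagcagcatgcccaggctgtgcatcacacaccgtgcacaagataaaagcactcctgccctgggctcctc
LCE3E: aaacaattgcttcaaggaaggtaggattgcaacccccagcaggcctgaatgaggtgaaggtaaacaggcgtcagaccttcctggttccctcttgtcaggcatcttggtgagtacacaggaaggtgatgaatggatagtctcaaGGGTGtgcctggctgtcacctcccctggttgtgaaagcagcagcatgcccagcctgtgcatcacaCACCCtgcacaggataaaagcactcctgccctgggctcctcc
CNFN: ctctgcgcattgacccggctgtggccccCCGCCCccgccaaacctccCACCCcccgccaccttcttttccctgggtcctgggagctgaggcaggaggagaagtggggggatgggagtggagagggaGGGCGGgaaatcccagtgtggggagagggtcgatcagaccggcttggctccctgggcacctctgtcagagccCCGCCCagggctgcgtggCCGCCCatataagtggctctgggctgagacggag

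AP-1 is a dimer of Jun and Fos proteins and a known activator of envelope genes. Its TGANTCA motif occurred in 4 of the 7 promoters, those of SPRR1A, SPRR1B, SPRR3 and IVL, and in 6.57% of the 35116 promoters of the table. In SPRR1A it began 108 bases before the start, in SPRR3 170 bases and in IVL 123 bases, and SPRR1B held 2 copies. CACCC occurred in 5 of the 7 promoters and in 54.7% of all, so its presence is common. SPRR1B, which did not pass against scramble control replicate 2, held 4 copies, and 1 of them shared bases with an AP-1 match. LCE3E held 2 copies of CACCC, while LCE3D held none of the 4 motifs in this window. The GC box occurred in 1 of the 7, CNFN, with 4 copies, and in 42.6% of all promoters. TATAAA occurred in 3 of the 7 and in 10.7% of all, beginning 29 bases before the start in SPRR1A and SPRR3 and 30 bases before it in IVL. A match is a description of letters in this window and was not tested against the expression values.

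The other SPRR and LCE genes formed a list of 20 measured genes. This list and the 10 precursors were chosen with earlier results of these data known, so the contrast of their medians is only a description. The shares of all genes that rose or fell against each control, given above for the precursors, are also the background for the counts in this list and the lists that follow. With 3 arrays against scramble control replicate 2, 3 fell and 0 rose, and the list median was -0.23, against -0.67 for the 10 precursors and -0.04 for all genes. Those that fell were all SPRR2 genes. Their probe sets may also read their neighbours, so they may not be separate observations. SPRR2B had a signal of 1306 in scramble control replicate 2 and of 625 and 711 in the siKLF7 arrays, and fell by 0.95 (SE 0.15, adjusted p = 1.2e-05). SPRR2F fell by 0.34 (SE 0.08) and SPRR2G by 0.29 (SE 0.08), and the second probe set of SPRR2G stood at -0.38. SPRR2A did not pass, with -0.17 (SE 0.08, adjusted p = 0.38). SPRR2A, SPRR2F and SPRR2G were 2.85 to 3.79 above scramble control replicate 1. SPRR2B was also higher than in that array, where its signal was close to the pseudocount, so no size is given. LCE1A, LCE1D and LCE2B, named for their high mean level in the list, stood at -0.18, -0.20 and -0.22 against scramble control replicate 2 and at -0.06, -0.34 and 0.21 against scramble control replicate 1, and none of the 3 passed in either comparison. With 4 arrays 0 of the 20 passed.

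**Figure D3:**
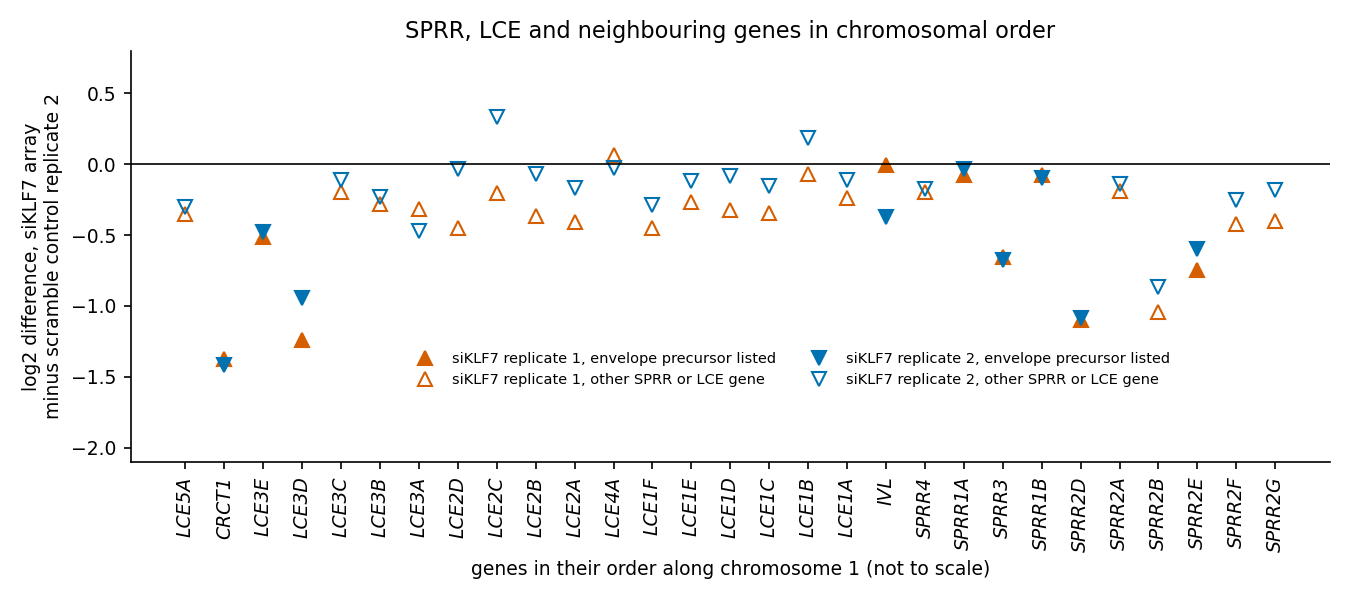
Log2 difference of each siKLF7 array from scramble control replicate 2 for 29 SPRR, LCE and neighbouring genes in their order along chromosome 1, with filled symbols for the 9 listed envelope precursors there and open symbols for the other SPRR and LCE genes. CRCT1 and LCE3D near one end and SPRR2D and SPRR2B near the other lie lowest, while the LCE1 and LCE2 genes between them lie between -0.45 and 0.33.

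Of 21 genes for cross-linking enzymes, scaffold proteins and other envelope components, 3 fell and 2 rose against scramble control replicate 2, with a list median of -0.13. The transglutaminase genes that passed differed in direction. TGM1, whose enzyme joins SPRR proteins and involucrin at the membrane, stood at 495 and 5323 in the controls and 3972 and 4185 in the siKLF7 arrays, and fell by 0.38 (SE 0.09, adjusted p = 0.0072). TGM3, a transglutaminase of late differentiation, fell by 0.97 (SE 0.16) from a signal of 403 to 179.8 and 217. TGM2, the widely expressed tissue transglutaminase, rose by 0.76 (SE 0.11), and its siKLF7 signals of 2817 and 3231 lay on both sides of the 2932 in scramble control replicate 1. PI3, the gene of the cross-linked protease inhibitor elafin, fell by 0.64 (SE 0.08), and FLG, the filaggrin gene, rose by 0.76 (SE 0.16). Unlike the precursors, FLG was above both controls on both siKLF7 arrays, and it stood 2.43 above scramble control replicate 1. The desmosomal plaque gene DSP stood at 0.11 (SE 0.08) and the cystatin A gene CSTA at -0.25 (SE 0.09), and neither passed. ANXA1, S100A10 and S100A11, whose products are also incorporated into envelopes, stood within 0.04 of scramble control replicate 2 and within 0.11 of scramble control replicate 1. For TGM1, TGM3 and PI3 scramble control replicate 1 was the lowest array, as for the precursors, and the log2 difference from it was 4.62 for PI3. This position was not limited to genes that fell. Both siKLF7 arrays were above scramble control replicate 1 for 18 of the 21, against 35.2% of all genes. For 9 of the 21, against 2.99% of all genes, scramble control replicate 1 was at least 2-fold below the mean of the other 3 arrays. The TGM3 signal in scramble control replicate 1 was 12.2, under the pseudocount, so the size of its difference there is set by the pseudocount. With 4 arrays 0 of the 21 passed.

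Factors known to act at envelope genes or in squamous differentiation formed a list of 21 measured genes, of which 1 fell and 0 rose against scramble control replicate 2, with a median of -0.11. That gene was PRDM1, a transcriptional repressor, with signals of 221 and 452 in the controls and 252 and 262 in the siKLF7 arrays. It fell by 0.78 (SE 0.16, adjusted p = 0.0014), and like the precursors its siKLF7 arrays lay between the controls. KLF5, SP1, JUNB, FOSL2, EHF and CEBPB, the 6 named for their mean level, stood between -0.15 and 0.09, and none of them passed. With scramble control replicate 1 as the control, the median was 0.56, against -0.05 for all genes, and the list ranged from -0.63 to 3.91. The 6 named for their mean level did not include the widest of these differences. Scramble control replicate 1 was at least 2-fold below the mean of the other 3 arrays for 6 of the 21, against 2.99% of all genes. Both siKLF7 arrays were above that control for 16 of the 21, against 35.2% of all genes, and below it for 5 of the 21. Among the 6 named, KLF5 rose by 0.61, JUNB by 0.70 and CEBPB by 0.45, while EHF fell by 0.48 there, and SP1 and FOSL2 stood at 0.29 and 0.16. With 4 arrays 0 of the 21 passed.

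**Figure D4:**
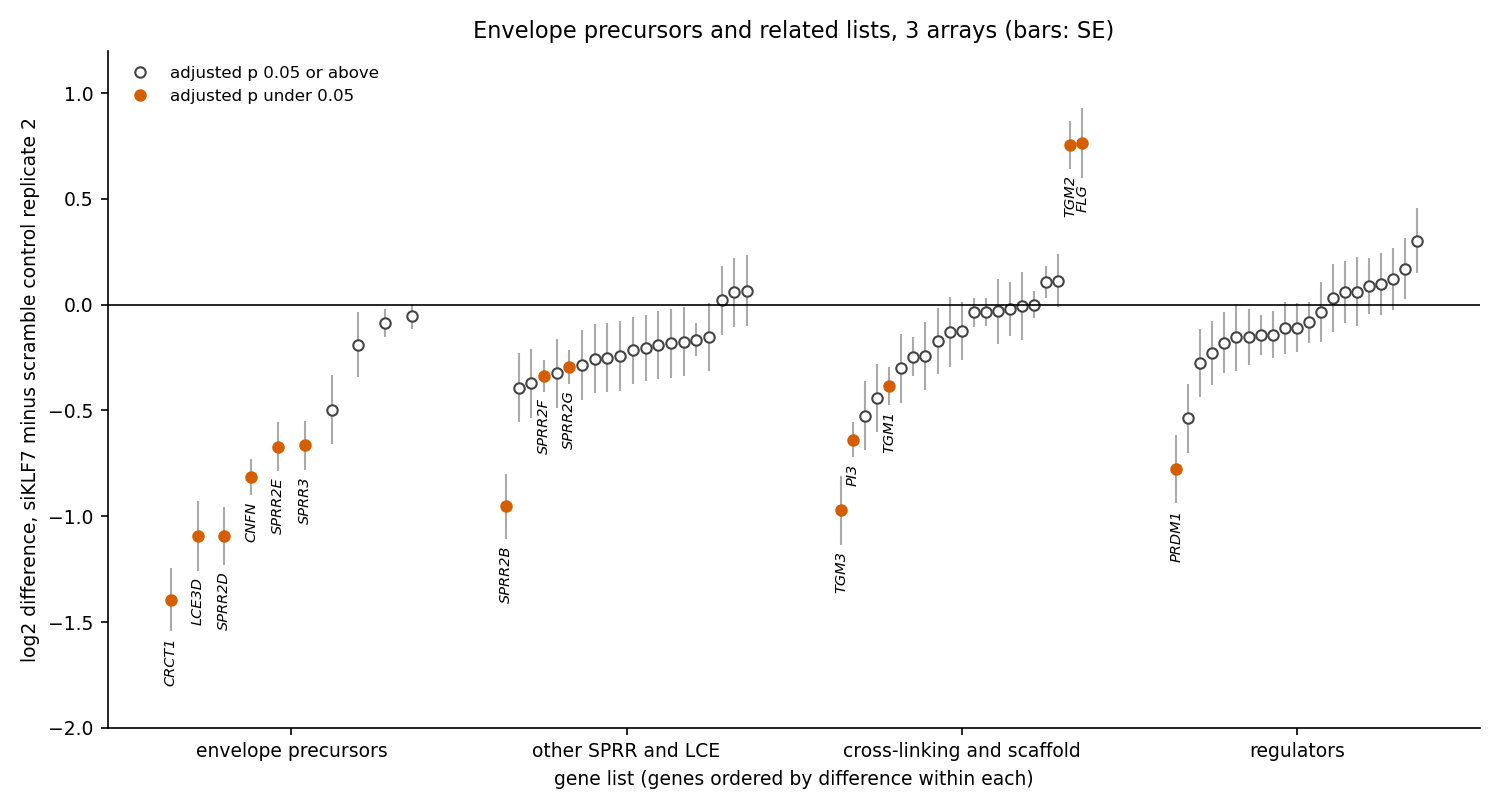
Log2 difference from scramble control replicate 2, fitted with 3 arrays, for the 10 envelope precursors, 20 other SPRR and LCE genes, 21 cross-linking and scaffold genes and 21 regulators, with bars for the SE and filled points for genes with a limma adjusted p under 0.05. Filled points number 6, 3, 5 and 1 in these lists, and only TGM2 and FLG among them lie above 0.

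The genes whose pattern over the 4 arrays was most like the median pattern of the 10 precursors were PGLYRP4, SLC6A14, ATP6V1C2, WFDC5 and TGM1. Likeness was the root-mean-square difference of mean-centred log2 levels, which was 0.08 for PGLYRP4, a peptidoglycan recognition protein gene, and 0.12 for TGM1. Among the precursors themselves it ranged from 0.17 for SPRR1B to 1.35 for LCE3E. In the median pattern of the precursors the centred level was -2.42 in scramble control replicate 1, 1.15 in scramble control replicate 2, and 0.81 and 0.68 in the siKLF7 arrays.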

How the data were processed

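Total RNA from 4 HCE samples (2 scramble control, 2 siKLF7) was measured on 1 array each. The authors deposited array intensity values on a linear scale, and the submitters' processing notes name PLIER 2.0 and Affymetrix Expression Console 1.1.1. A normalization between arrays is neither stated nor denied there. Median deposited signals were 187, 194, 190.3 and 185, and the number of arrays limits the precision. Of 33297 features, 19460 had 1 gene symbol in the platform annotation, and the feature with the highest mean was kept for each of 18417 genes.

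Values were analysed as log2(signal + 16), with no further normalization or filter, in limma 3.58.1 under R 4.3.3 (lmFit, then eBayes with an intensity trend) and p-values adjusted by Benjamini-Hochberg across the 18417 genes were called under 0.05. The fit was run on simulated data with planted changes. For the 3-array fit the simulated control had the same spread as the siKLF7 arrays. That run therefore does not check calls made against a single control that may vary more. Fits without 1 control had 1 residual degree of freedom. The members and lists were chosen with earlier results of these data known. From each further list, the 6 genes with the highest mean level and any that passed with 4 arrays or without scramble control replicate 1 were named. The 5 genes with the smallest root-mean-square difference from the members' median pattern were named as most alike. Symbols written in the lists that matched no feature with 1 symbol were not analysed here. Alternatives changed the scaling (quantile normalization or median centring), the filter (no genes of the dimmest 25%), the prior (no intensity trend), the summary of probe sets (mean), the pseudocount (1 or 32) and the samples (each array left out), or added a block for the replicate number. Promoter sequences came from RefSeq tables of GRCh38.p14. Figures used matplotlib 3.10.9.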

Additional observations from a re-analysis of the deposited data

How the results depend on the processing

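With 4 arrays, 0 genes and 0 members of any list passed with each alternative that kept all arrays, and without either siKLF7 replicate. Leaving out each array in turn gave 0 to 4935 genes, 0 to 9 of the 10 precursors, 0 to 6 other SPRR and LCE genes, 0 to 14 cross-linking and scaffold genes and 0 to 17 regulators. The counts without scramble control replicate 1 were 290, 6, 3, 5 and 1, and those without scramble control replicate 2 were 4935, 9, 6, 14 and 17. The same omissions gave log2 differences of -1.83 to -1.16 for KLF7, which passed without either control, -0.056 to 3.42 for SPRR1A, -0.088 to 3.47 for SPRR1B, -1.09 to 4.99 for SPRR2D, -0.67 to 5.35 for SPRR2E, -0.67 to 2.78 for SPRR3, -0.19 to 2.70 for IVL, -0.82 to 4.77 for CNFN, -1.39 to 1.95 for CRCT1, -1.09 to 1.15 for LCE3D and -0.50 to 0.019 for LCE3E. Without scramble control replicate 1 the sign turned for 9 precursors, all but LCE3E, and without scramble control replicate 2 for LCE3E. LCE3D also turned without siKLF7 replicate 2, to -0.12. Why the control arrays differ was not tested. With the replicate number as a block, 0 genes passed. Same-numbered arrays deviated from their group means with a correlation of -0.04 across genes. Scramble control replicate 1 stood apart from all other arrays, so this value cannot show whether same-numbered arrays were handled together. Without scramble control replicate 1, 6 precursors fell under each of 7 further settings, which called 172 to 484 genes in all, with quantile normalization giving the most. The highest adjusted p of these 6 was 0.028, for SPRR2E with no intensity trend. These 7 settings were run on the 3 arrays after seeing the data. All of them kept the same control array and the same siKLF7 pair, so they cannot show how the fall depends on the control.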
